A study of Mus musculus with 14 samples.

Results

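The 10 genes described here, Clu, Enpp2, Pdpn, Pdgfra, Pdgfrb, Vcam1, Icam1, Il7, Mfge8 and Igfbp3, were taken by name from a table of 46959 mouse genes as genes of the reticular stroma of lymph nodes. All 10 were found. They were measured by RNA sequencing in 14 libraries from the Eµ-Myc model, in which Myc under the immunoglobulin heavy chain enhancer turns B-lineage cells malignant. Malignant cells of 12 transgenic mice (E-mu-MycTg/+), numbered 115, 136, 309, 504, 505, 506, 517, 524, 549, 649, 688 and 801, had been grown as lines, untreated, for 24 h in a medium with added L-asparagine, and gave 1 library each. The other 2 libraries came from whole lymph node lymphomas that line 506 had formed in wild-type C57BL/6 mice. Treatment ran from day 7 after engraftment until disease endpoint, with vehicle (NaCl 0.9%) for 1 library and with L-asparaginase (ASNase), which hydrolyses asparagine, for the other. They are called the vehicle tumour and the ASNase tumour here (lymphomas in the plots). Both lymphomas therefore stem from 1 line, can hold host cells as well as malignant cells, and have no replicate. The genotype label was WT for all 14 libraries. Depth was 24597230 to 32614751 counts in the lines, 27715832 in the vehicle tumour and 25690935 in the ASNase tumour. Levels are given in CPM (counts scaled to library size, with TMM scaling). A count of 0 allows up to 3 counts, which equal 0.0896 to 0.124 CPM.

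Fibroblastic reticular cells are the mesenchymal cells that build the conduit network of a lymph node. They carry podoplanin, PDGF receptors, VCAM-1 and ICAM-1, and release IL-7 and chemokines that feed and guide lymphocytes. Follicular dendritic cells, the stroma of B cell follicles, are known for clusterin, MFG-E8, ICAM-1 and VCAM-1, and high endothelial venules and reticular cells both make autotaxin, the product of Enpp2. None of the 10 genes is confined to these cells, since endothelium, pericytes, macrophages, other fibroblasts and lymphocytes express several of them.

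In the cultured lines the genes fell into a nearly silent and an expressed set. Icam1 and Mfge8 were counted in all 12 lines, with 14206 and 7676 counts summed over them. Pdpn and Pdgfra had no count in any line, Igfbp3 had 1, Clu and Enpp2 had 2 each, Vcam1 and Il7 had 5 each, and Pdgfrb had 55, of which 46 came from line 504. All 10 were counted in both lymphomas. Thus 8 of the 10 were nearly absent from cultured malignant B cells, which does not show the cell type that expressed them in the tissue, whereas Icam1 and Mfge8 were expressed by the cultured cells too.

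**Figure D1:**
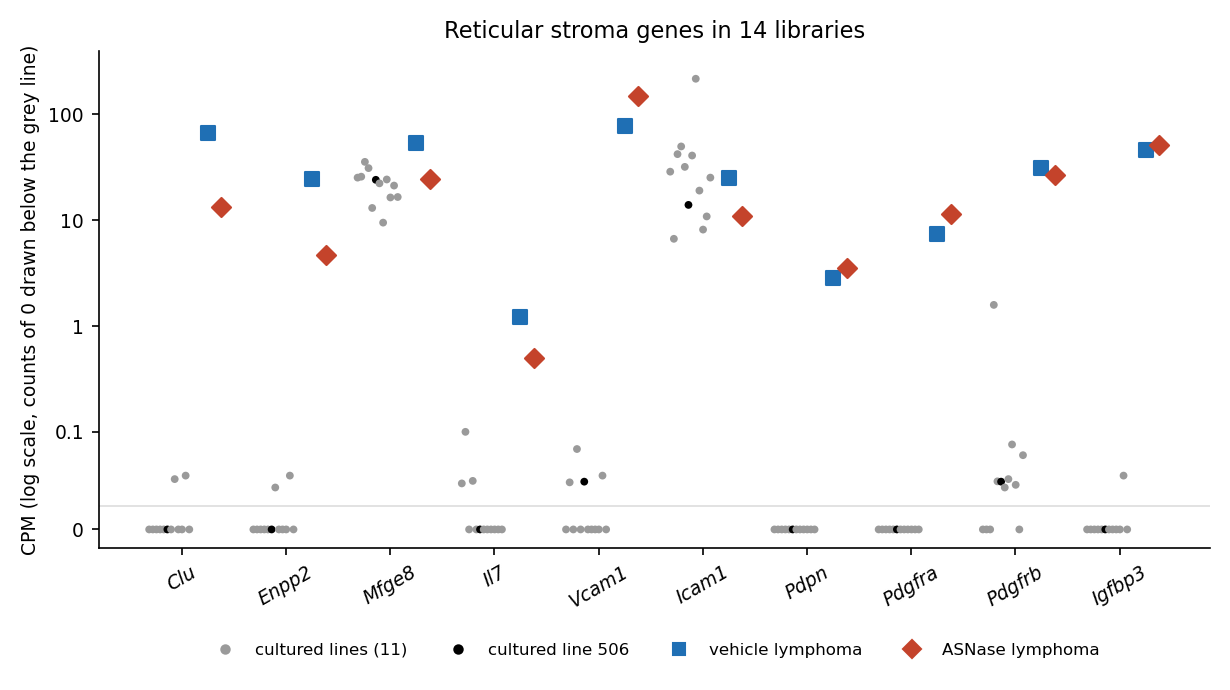
Level of each gene in the 14 libraries, in CPM on a log scale, with counts of 0 drawn below the grey line; grey dots are 11 cultured lines, the black dot is line 506, the blue square is the vehicle tumour and the red diamond the ASNase tumour. Both lymphomas lie above every line for 8 genes, whereas Icam1 in both and Mfge8 in the ASNase tumour lie within the range of the lines.

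As a description only, the 250 bases before the annotated start are printed for the expressed pair, Icam1 and Mfge8. They are also printed for 2 genes with 0 and 1 counts over the lines, Pdgfra and Igfbp3. A relation of sequence to expression was not tested. These sequences were taken from RefSeq (GRCm38.p6), which matched 5 of the 10 genes, and run 5′ to 3′ on the strand of the gene. Capitals mark GGGCGG, the core of an SP1 site, on either strand, the single kind of match found among 3 motifs searched. The others were TATAAA and the kappa-B consensus in its strict form, GGGRNWYYCC (R is A or G, N any base, W is A or T, Y is C or T). The printed stretches lie at chr9:21015690-21015939 (plus strand) for Icam1, chr7:79149061-79149310 (minus strand) for Mfge8, chr5:75152001-75152250 (plus strand) for Pdgfra and chr11:7213924-7214173 (minus strand) for Igfbp3.
Icam1: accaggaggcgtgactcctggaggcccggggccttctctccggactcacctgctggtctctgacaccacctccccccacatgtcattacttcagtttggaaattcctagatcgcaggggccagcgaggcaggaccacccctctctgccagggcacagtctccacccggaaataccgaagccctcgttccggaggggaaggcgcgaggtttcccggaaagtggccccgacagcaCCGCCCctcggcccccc
Mfge8: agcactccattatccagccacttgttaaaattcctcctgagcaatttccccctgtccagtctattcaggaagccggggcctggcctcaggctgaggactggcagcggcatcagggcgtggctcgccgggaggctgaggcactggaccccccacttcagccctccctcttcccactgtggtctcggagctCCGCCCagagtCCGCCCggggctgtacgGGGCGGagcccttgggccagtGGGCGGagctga
Pdgfra: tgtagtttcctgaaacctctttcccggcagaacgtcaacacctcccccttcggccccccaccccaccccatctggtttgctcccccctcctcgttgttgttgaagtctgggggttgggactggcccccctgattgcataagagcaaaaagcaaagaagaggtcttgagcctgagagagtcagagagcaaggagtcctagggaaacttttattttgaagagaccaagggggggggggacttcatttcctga
Igfbp3: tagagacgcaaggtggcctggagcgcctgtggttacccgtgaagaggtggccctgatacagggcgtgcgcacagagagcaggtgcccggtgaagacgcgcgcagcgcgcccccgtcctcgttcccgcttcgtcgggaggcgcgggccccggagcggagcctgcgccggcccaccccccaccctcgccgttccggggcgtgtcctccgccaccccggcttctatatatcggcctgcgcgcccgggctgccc
Mfge8 held 4 GGGCGG matches and Icam1 held 1, while Pdgfra, Igfbp3 and Pdpn, the fifth gene matched, held none. Of 32851 such stretches in the RefSeq table, 32.7% held GGGCGG, 12.4% TATAAA and 3.90% the kappa-B consensus on either strand. CpG dinucleotides numbered 15 for Icam1, 12 for Mfge8, 4 for Pdgfra and 32 for Igfbp3, against a median of 6 over the table. The silent genes thus stood on both sides of the median. A match describes the letters alone, and its absence says only that they are not in this stretch. Letters close to the kappa-B consensus were not searched for. The Icam1 stretch holds tggaaattcc, which differs from it in the first base only, so the search does not show that Icam1 lacks a kappa-B site.

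The comparison of both lymphomas with the lines asked which of these transcripts were present in tumour tissue beyond the cultured cells. Clu, Enpp2, Pdpn, Pdgfra, Pdgfrb, Vcam1, Il7 and Igfbp3 were called higher in the lymphomas and Icam1 and Mfge8 were not called. In edgeR's quasi-likelihood test with Benjamini-Hochberg adjustment over 17450 genes, 2341 genes (13.4%) were called higher and 1929 (11.1%) lower at an adjusted p under 0.05. Apart from Pdgfrb, the members called higher had at most 3 counts in any line and passed the filter on low counts only through the lymphomas, so neither their number nor their adjusted p, from 4.46e-08 for Igfbp3 to 0.0250 for Pdpn, supports a difference by itself. What follows for them rests on the counts. The same holds for genes of the lists below that were nearly silent in the lines, among them Trem2, Itgax, Clec1b and Ltbr. The numbers of list genes called therefore do not support a difference by themselves either. The spread in the test came from the lines alone (11 residual degrees of freedom), each lymphoma being taken to vary as a further line would. In such bulk tissue, fewer cells of a type and less RNA per cell cannot be told apart.

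Among the secreted factors, clusterin and autotaxin differed most between the lymphomas. Clu (chromosome 14, 65968483 to 65981548, plus strand), which encodes an extracellular chaperone abundant in follicular dendritic cells, stood at 66.7 CPM in the vehicle and 13.4 CPM in the ASNase tumour. In the lines it had 1 count each in lines 524 and 688 and 0 in the other 10. Both lymphomas thus lay above every line, and the ratio to the pooled lines was 11680 (95% counting interval 3230 to 96540) for the vehicle and 2354 (647 to 19500) for the ASNase tumour. Enpp2 (chromosome 15, 54838898 to 54920146, minus strand) encodes the enzyme that makes lysophosphatidic acid, a lipid that speeds lymphocyte entry and movement. It stood at 24.5 CPM in the vehicle and 4.71 CPM in the ASNase tumour, with 1 count each in lines 517 and 688. Counts were 2070 against 402 for Clu and 760 against 141 for Enpp2, so the vehicle tumour held 4.96 times (4.46 to 5.54) as much Clu and 5.20 times (4.34 to 6.26) as much Enpp2.

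Of 6 receptor genes for lysophosphatidic acid, 3 were expressed at the median line, with medians of 19.85 CPM for Lpar5, 10.9 CPM for Lpar6 and 6.88 CPM for Lpar2. The medians of Lpar1, Lpar3 and Lpar4 were 0.0327, 0.0340 and 0 CPM, with Lpar1 at 15.9 CPM in its highest line. Of 7 tested genes for lysophosphatidic acid receptors and the phosphatases that degrade the lipid, 0 were called by edgeR and 0 by DESeq2, and 1 had an unadjusted edgeR p under 0.05. The phosphatase genes Plpp1, Plpp2 and Plpp3 stood at 5.19, 5.35 and 15.2 CPM in the vehicle and 6.51, 4.21 and 13.5 CPM in the ASNase tumour, each within 1.27-fold between them. Trem2, a lipid receptor of macrophages that also binds clusterin, had no count in the lines and reached 4.19 and 10.4 CPM with vehicle and with ASNase.

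Il7 (chromosome 3, 7569994 to 7613760, minus strand), the survival cytokine that reticular cells supply to T cells and B cell precursors, was the scarcest member. It stood at 1.22 CPM (38 counts) in the vehicle and 0.501 CPM (15 counts) in the ASNase tumour. In the lines it had 3 counts in line 136 and 1 each in lines 115 and 504. The highest was 0.1003 CPM, so by their counts the lymphomas lay above all of them. Its edgeR call (adjusted p = 0.00175) adds no support, since Il7 passed the filter only through the lymphomas. DESeq2's Wald test did not call it (adjusted p = 0.0712). An entry on the opposite strand within the gene, Gm16685, held 0.225 and 0.0334 CPM with vehicle and with ASNase, and the strand setting of the counting is not given in the sources used here. The receptor gene Il7r was expressed in culture and in tissue. It stood at a median of 35.7 CPM in the lines, 49.8 CPM in the vehicle and 57.8 CPM in the ASNase tumour, and was not called (edgeR adjusted p = 0.814). Of 7 tested genes of the receptor and its signal, only Jak3, the kinase bound to the common gamma chain, was called, with 57.8 CPM under vehicle and 45.2 CPM under ASNase against 15.8 ± 9.60 CPM across the lines (SD, n = 12, edgeR adjusted p = 0.0203). Il2rg, which encodes that chain, stood at 34.5 and 15.7 CPM with vehicle and with ASNase.

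Igfbp3 (chromosome 11, 7206086 to 7213923, minus strand), which encodes a carrier of insulin-like growth factors, was nearly even between the lymphomas. It stood at 45.7 CPM (1419 counts) in the vehicle and 51.35 CPM (1537 counts) in the ASNase tumour, with a single count in line 688 and 0 in the other 11 lines. Both lymphomas lay above every line, with ratios to the pooled lines of 16020 (2870 to 633100) and 18000 (3226 to 711400). Of 10 tested genes of the IGF axis, 4 were called higher. Tmem219, a receptor of IGFBP-3, stood at 21.7 CPM in the vehicle and 18.5 CPM in the ASNase tumour, against 10.2 ± 3.36 CPM across the lines (SD, n = 12, edgeR adjusted p = 0.0456). Igfbp7, a binding protein of vessels, had 11 counts in all lines together, against 74.4 and 41.1 CPM with vehicle and with ASNase, while Igf1, the growth factor itself, had 5 counts and 7.76 and 13.7 CPM. Igf1r, the receptor, stood at 9.63 and 18.3 CPM in the lymphomas and 28.1 ± 12.2 CPM across the lines (SD, n = 12), and was not called (edgeR adjusted p = 0.378).

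Mfge8 (chromosome 7, 79133768 to 79149060, minus strand), which encodes a bridge between dying cells and phagocytes, was expressed everywhere. The lines ran from 9.51 CPM (line 524) over a median of 23.2 to 35.7 CPM (line 309), and line 506 had 24.1 CPM. The vehicle tumour, at 54.3 CPM, lay above all 12 lines, and the ASNase tumour, at 24.45 CPM, lay among them. The 2 lymphomas together were not called against the lines (log2 fold change 0.72, SE 0.36, edgeR adjusted p = 0.163). With the vehicle tumour as the only tumour the log2 fold change was 1.29 (edgeR adjusted p = 0.0828), and with the ASNase tumour as the only tumour it was 0.15 (0.901). Against its own line 506, the vehicle tumour held 2.25 times (2.06 to 2.46) as much Mfge8 and the ASNase tumour 1.01 times (0.913 to 1.12).

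The genes that act beside MFG-E8 in the clearance of dying cells showed no common direction between the lymphomas. Of 10 tested, 7 were called higher in the lymphomas, and 2 of 9 at 5 CPM or more were at least 2-fold higher in the ASNase tumour. Mertk and Axl, phagocyte receptor kinases, stood at 6.99 and 34.0 CPM in the vehicle and 22.0 and 67.8 CPM in the ASNase tumour. Stab1, a scavenger receptor, stood at 36.5 and 74.6 CPM, and Gas6, the ligand of Axl and MerTK, at 14.1 and 21.6 CPM. Mfge8 itself was lower in the ASNase tumour while these 4 were higher. Timd4, a phosphatidylserine receptor of macrophages, was lower like Mfge8, at 4.19 and 2.64 CPM (ratio 0.630, interval 0.471 to 0.840), and so was the integrin chain gene Itgb3, at 5.96 and 4.58 CPM (0.768, interval 0.611 to 0.963). The interval of Stab2, a scavenger receptor related to Stab1, reached 1 (ratio 0.845, interval 0.713 to 1.00). Timd4, Itgb3 and Stab2 were named after their values were seen.

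The adhesion molecules VCAM-1 and ICAM-1 differed in opposite directions between the lymphomas. Vcam1 (chromosome 3, 116109949 to 116129688, minus strand), the ligand of the integrin VLA-4, stood at 78.25 CPM in the vehicle and 150.8 CPM in the ASNase tumour. Of the lines, 8 had no count and the highest, line 504, had 0.0690 CPM. Both lymphomas lay above every line, with ratios to the pooled lines of 5486 (2348 to 16910) for the vehicle and 10570 (4528 to 32580) for the ASNase tumour. With 4515 against 2430 counts, Vcam1 was 1.93-fold (1.83 to 2.03) as abundant in the ASNase tumour. Icam1 (chromosome 9, 21015960 to 21028797, plus strand), the ligand of the integrin LFA-1, ran in the lines from 6.69 CPM (line 136) over a median of 27.1 to 217.5 CPM (line 524). The vehicle tumour had 25.0 CPM and the ASNase tumour 11.0 CPM, both within the range of the lines. The lymphomas were not called against the lines (log2 fold change -1.32, SE 1.17, edgeR adjusted p = 0.456), and without line 524 the log2 fold change was -0.61 (0.560). Against line 506, which had 14.0 CPM, the vehicle tumour held 1.79 times (1.58 to 2.02) and the ASNase tumour 0.786 times (0.678 to 0.911) as much Icam1.

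Genes for several chains of the integrins that bind these ligands were expressed in the cultured lines already, but not all. Of 7 tested, 1 was called, Itgax, a chain of dendritic cells and macrophages that had 1 count in all lines together, against 3.22 and 1.67 CPM with vehicle and with ASNase. It was named after its values were seen. Itga4, the alpha chain of VLA-4, stood at 182.8 CPM in the vehicle and 274 CPM in the ASNase tumour, beside 266.6 CPM in line 506. Itgb2, the beta chain of LFA-1, stood at 62.7 and 50.4 CPM in the lymphomas and 36.8 CPM in line 506. Itgal, the alpha chain of LFA-1, stood at 32.75 and 31.24 CPM in the lymphomas but at only 0.916 CPM in line 506. Its median over the lines was 0.535 CPM and its highest line had 196.7 CPM. Itgb7, which pairs with alpha 4 on lymphocytes that home to the gut, differed more, at 21.8 CPM in the vehicle and 3.84 CPM in the ASNase tumour, with 2.17 CPM in line 506.

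The surface receptors of mesenchymal cells differed less between the lymphomas than clusterin and autotaxin did. Pdgfra (chromosome 5, 75152292 to 75198215, plus strand), the PDGF receptor of fibroblasts, had no count in any line, 7.50 CPM (233 counts) in the vehicle and 11.4 CPM (342 counts) in the ASNase tumour. Against a floor of 3 counts for the pooled lines, it was at least 877-fold higher with vehicle and at least 1335-fold higher with ASNase. Pdgfrb, the PDGF receptor of pericytes and reticular cells, had 31.1 CPM (967 counts) in the vehicle and 26.7 CPM (798 counts) in the ASNase tumour. The lines had 0 to 0.0762 CPM except for line 504, at 1.59 CPM, and all 12 lay below both lymphomas (edgeR adjusted p = 0.00253). Without line 504 the log2 fold change went from 7.48 to 9.81 (edgeR adjusted p = 1.65e-06). Pdgfrb then had at most 2 counts in any line and passed the filter on low counts only through the lymphomas. The smaller adjusted p therefore adds no support.

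Pdpn (chromosome 4, 143267431 to 143299564, minus strand), which encodes podoplanin, the defining glycoprotein of reticular cells and lymphatic endothelium, was low in both lymphomas. It had no count in any line, 88 counts (2.83 CPM) in the vehicle and 107 counts (3.58 CPM) in the ASNase tumour, at least 331-fold and at least 418-fold higher than the floor of 3 counts over the lines. Its call (edgeR adjusted p = 0.0250) was lost without the vehicle tumour (adjusted p = 0.0507), without the ASNase tumour (0.0595) and with DESeq2 (0.0953). Clec1b, the platelet and dendritic cell receptor that binds podoplanin, had 1 count in all lines together, against 2.38 and 2.24 CPM with vehicle and with ASNase. It was the single gene called of 4 podoplanin partners, and was named after its values were seen. The others were Cd44 (129.8 and 177.3 CPM with vehicle and with ASNase), Ezr (281 and 254 CPM) and Msn (601 and 596 CPM), and were not called.

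Of the 4 PDGF ligands, 3 were called higher in the lymphomas by edgeR and 1 by DESeq2. Pdgfb, the ligand that vessels offer to pericytes, stood at 6.47 CPM in the vehicle and 3.01 CPM in the ASNase tumour, whereas the lines had a median of 0 and a highest value of 1.24 CPM (edgeR adjusted p = 0.0373). Pdgfc stood at 1.22 and 4.98 CPM with vehicle and with ASNase, a ratio of 4.07 (2.83 to 5.97), and was named after its values were seen. Ligands and receptors of this family thus showed no common direction between the lymphomas.

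Levels of different genes were compared per kilobase of gene length. In the vehicle tumour Clu led with 19.4 CPM per kilobase, followed by Igfbp3 (14.6), Mfge8 (11.6), Icam1 (9.83), Vcam1 (8.82), Enpp2 (7.05), Pdgfrb (5.69), Pdpn (1.56), Pdgfra (0.749) and Il7 (0.216). All neighbours in this order had separate counting intervals except Icam1 (9.15 to 10.5) and Vcam1 (8.48 to 9.18). In the ASNase tumour Vcam1 (17.0) and Igfbp3 (16.4) led with overlapping intervals, and Mfge8 (5.21), Pdgfrb (4.87), Icam1 (4.33) and Clu (3.91) followed, the interval of each overlapping with that of the next. Pdpn (1.97), Enpp2 (1.36), Pdgfra (1.14) and Il7 (0.0885) came last, and the interval of Enpp2 overlapped with that of Pdgfra. Of the summed level of the 10 genes, Vcam1 made up 11.1% in the vehicle and 30.2% in the ASNase tumour, and Clu 24.4% and 6.94%. Clu moved from the first to the sixth place and Vcam1 from the fifth to the first.

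**Figure D2:**
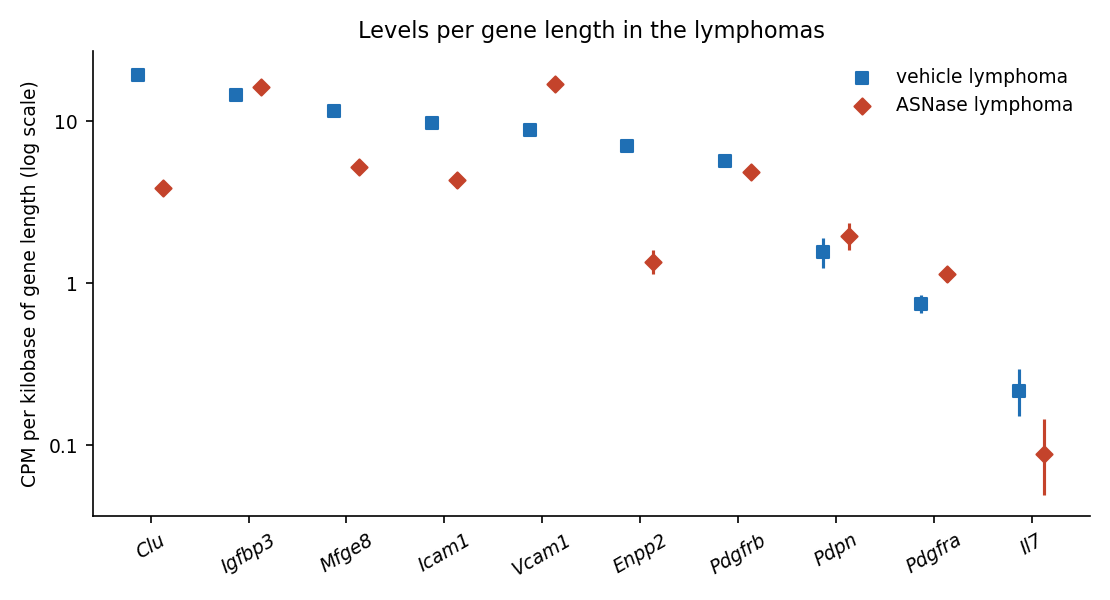
Level of each gene per kilobase of gene length in the vehicle tumour (blue squares) and the ASNase tumour (red diamonds), on a log scale in CPM per kilobase; bars are 95% counting intervals, hidden by the symbol where narrow. Clu stands at 19.4 and 3.91 and Vcam1 at 8.82 and 17.0.

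The comparison of treatments set the ASNase against the vehicle tumour, with 1 library each and no test. The 10 genes did not differ as a block. Clu and Enpp2 were least abundant relative to the vehicle tumour, with ratios of 0.201 (95% exact counting interval 0.181 to 0.224) and 0.193 (0.160 to 0.231). Il7 (0.410, interval 0.209 to 0.762), Icam1 (0.440, interval 0.386 to 0.502) and Mfge8 (0.450, interval 0.412 to 0.491) were lower too. Pdgfrb (0.856, interval 0.779 to 0.941) and Igfbp3 (1.12, interval 1.04 to 1.21) were near 1. Pdgfra (1.52, interval 1.29 to 1.81) and Vcam1 (1.93, interval 1.83 to 2.03) were higher, and the interval of Pdpn spanned 1 (1.26, interval 0.943 to 1.69). By a size rule of at least 2-fold with 5 CPM or more in at least 1 lymphoma, 285 of 10561 genes (2.70%) were higher and 210 (1.99%) lower in the ASNase tumour. Of the 8 members at that level, 4 were lower by this rule (Clu, Enpp2, Icam1 and Mfge8) and 0 were higher. Pdpn and Il7 were under 5 CPM in both.

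**Figure D3:**
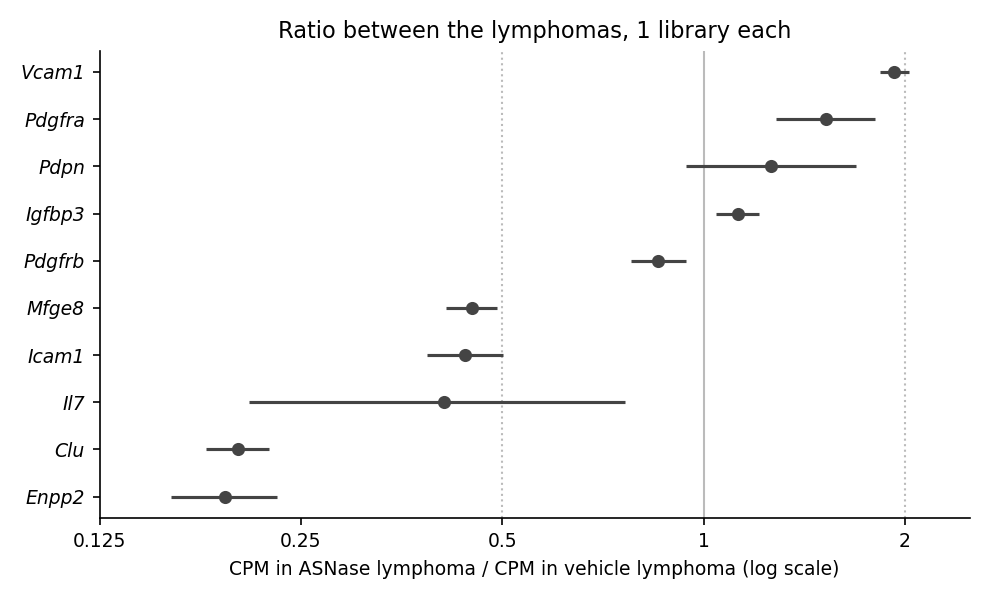
Ratio of CPM in the ASNase tumour to CPM in the vehicle tumour for each gene, on a log scale; bars are 95% exact counting intervals, the solid line is 1 and the dotted lines are 2-fold. Enpp2 (0.193) and Clu (0.201) lie farthest below 1 and Vcam1 (1.93) farthest above it.

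Marker lists of the cell types that a lymph node holds were set beside these ratios. The median log2 ratio of all genes at 5 CPM or more was -0.05. Fibroblast genes were mostly higher in the ASNase tumour, with a median of 1.06 over 13 genes and 7 of them at least 2-fold higher. Their summed level went from 964 CPM in the vehicle to 2433 CPM, against 0.0381 to 3.01 CPM in the lines. Most of that sum came from Col1a1, Col1a2 (217.6 and 579.1 CPM) and Col3a1 (265.1 and 844.2 CPM). Col1a1, a chain of collagen I, stood at 273 and 602 CPM, Postn, the matrix protein periostin, at 27.5 and 118 CPM, and Lum, the proteoglycan lumican, at 0.934 and 7.85 CPM. The list was not uniform. Ratios were 1.30 for Dcn, 1.22 for Col6a1 and Col6a2 and 1.13 for Loxl1. Thy1 was lower, at 12.0 and 6.11 CPM (ratio 0.510, interval 0.425 to 0.611). Relative to that fibroblast median, all 10 members were lower in the ASNase tumour, from -0.12 for Vcam1 to -3.44 for Enpp2 on the log2 scale, and Vcam1, Pdgfra, Pdpn and Igfbp3 thereby changed sign, the counting interval of Pdpn having spanned 1 before. Macrophages are known to carry VCAM-1 in lymphoid tissue. Their genes had a median of 1.05 over 11 genes, with 7 at least 2-fold higher and 1 lower, and a sum of 236 and 513 CPM against 2.84 to 63.1 CPM in the lines. The part of these cells in the ratio of Vcam1 was not tested.

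Genes of reticular cells proper had a median log2 ratio of -0.40 over 8 genes at the floor, with 0 at least 2-fold higher and 1 lower. Of 15 tested, 8 were called higher in the lymphomas against the lines. The sum of the list was 193.6 CPM in the vehicle and 114.8 CPM in the ASNase tumour, against 0.852 to 240.7 CPM in the lines. In their highest lines Gja1 reached 188 CPM and Il33 reached 39.7 CPM, above both lymphomas, though their medians over the lines were 0.0365 and 0.153 CPM. Ccl21a, the chemokine that draws T cells and dendritic cells, stood at 67.4 and 20.2 CPM, a ratio of 0.300 (0.274 to 0.329), although reads of near-identical Ccl21 copies may be shared with it. Cxcl12 (50.3 and 33.1 CPM), a chemokine that retains lymphocytes, and Cd34 (16.8 and 10.0 CPM), a marker of vessels and of stromal cells around them, were also lower, while Il33 (6.57 and 10.8 CPM), an alarmin of reticular cells, was higher. Genes of the list under 5 CPM in both lymphomas are left out of that median. Of these, Ccl19 (ratio 0.154, interval 0.0832 to 0.266), Madcam1 (0.148, 0.0283 to 0.496) and Cxcl9 (0.259, 0.110 to 0.549) were lower in the ASNase tumour. So were Tnfsf11 (0.259, 0.0470 to 0.961) and Bst1 (0.585, 0.439 to 0.774), while the intervals of Grem1 and Tnfsf13b spanned 1. No reticular marker of the list was at 0 in either lymphoma.

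Genes of follicular dendritic cells, which are rich in Clu and Mfge8, had a median of -0.64 over 7 genes with 2 at least 2-fold lower. Of 8 tested, 5 were called higher against the lines, and 3 of those (Cxcl13, Ltbr and Tnfsf13b) also stand in the reticular cell list. Cr2, the complement receptor CD21, stood at 5.06 and 0.468 CPM, and Fcer2a, the low-affinity IgE receptor CD23, at 9.89 and 0.167 CPM with vehicle and with ASNase, and mature B cells express both as well. C4b, a complement component, stood at 75.5 and 41.8 CPM, and Cxcl13, the chemokine of follicles, at 7.70 and 4.94 CPM. The summed level was 299.7 and 195.3 CPM, against 87.6 to 338.8 CPM in the lines, most of it from Fcgr2b, an inhibitory Fc receptor of B cells too, at 185.2 and 130.3 CPM in the lymphomas and 206.9 CPM in line 506. Whether follicular dendritic cells had a part in the lower Clu and Mfge8 was not tested.

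Vessel genes, to which Enpp2 also belongs, were mostly lower in the ASNase tumour. Those of blood endothelium and high endothelial venules had a median of -0.84 over 10 genes, with 1 at least 2-fold lower, and a sum of 401 and 243 CPM, against 32.0 to 890.6 CPM in the lines. Pecam1 gave 155.9 and 116.1 CPM of that sum, and stood at 80.8 CPM in line 506. Glycam1, an adhesion ligand of high endothelial venules, stood at 25.0 and 0.902 CPM, and Chst4, which sulphates such ligands, had 13 counts in the vehicle and 0 in the ASNase tumour, which allows up to 0.1002 CPM. Lymphatic genes had a median of -0.19 over 6 genes with 2 at least 2-fold lower, Lyve1, a hyaluronan receptor, at 16 and 4.78 CPM, and Ccl21a. Their sum was 612 and 600.1 CPM, against 0.0718 to 1715 CPM in the lines, and most of it came from Reln, which encodes the secreted protein reelin and had 476.5 and 515.7 CPM in the lymphomas and a median of 961.5 CPM in the lines. Prox1, their defining transcription factor, stood at 15.7 and 18.6 CPM, but also at up to 7.81 CPM in the lines, and Mmrn1 was at 0 in both lymphomas. Pericyte and smooth muscle genes had a median of -0.80 over 7 genes, with 2 at least 2-fold lower, and a sum of 208.6 and 130.6 CPM, against 0.683 to 64.3 CPM in the lines, although Rgs5 alone stood at 63.8 CPM in line 506. T cell genes had a median of -2.63 over 4 genes, all at least 2-fold lower, with a sum of 66.9 and 16.4 CPM, against 1.23 to 42.6 CPM in the lines. The part of each of these cell types in the ratios of Clu, Enpp2, Il7 and Pdgfrb was not tested.

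The B cell list had a median log2 ratio of -0.45 over 10 genes, with 1 at least 2-fold lower. Against the lines its median log2 fold change was 0.15 (-0.01 over all genes tested). Of its 10 genes, edgeR called 0 and DESeq2 called 1, and 2 had an unadjusted edgeR p under 0.05. Its sum was 2424 to 3827 CPM in the lines, 4523 CPM in the vehicle and 3399 CPM in the ASNase tumour. Dendritic cell genes summed to 86.1 and 44.3 CPM in the lymphomas and 7.11 to 357 CPM in the lines, with 3 of 8 called higher against the lines. Genes of epithelium and muscle summed to 0.870 and 0.802 CPM in the lymphomas and 0.0345 to 7.01 CPM in the lines, with Krt5 and Myh4 at 0 in both lymphomas.

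**Figure D4:**
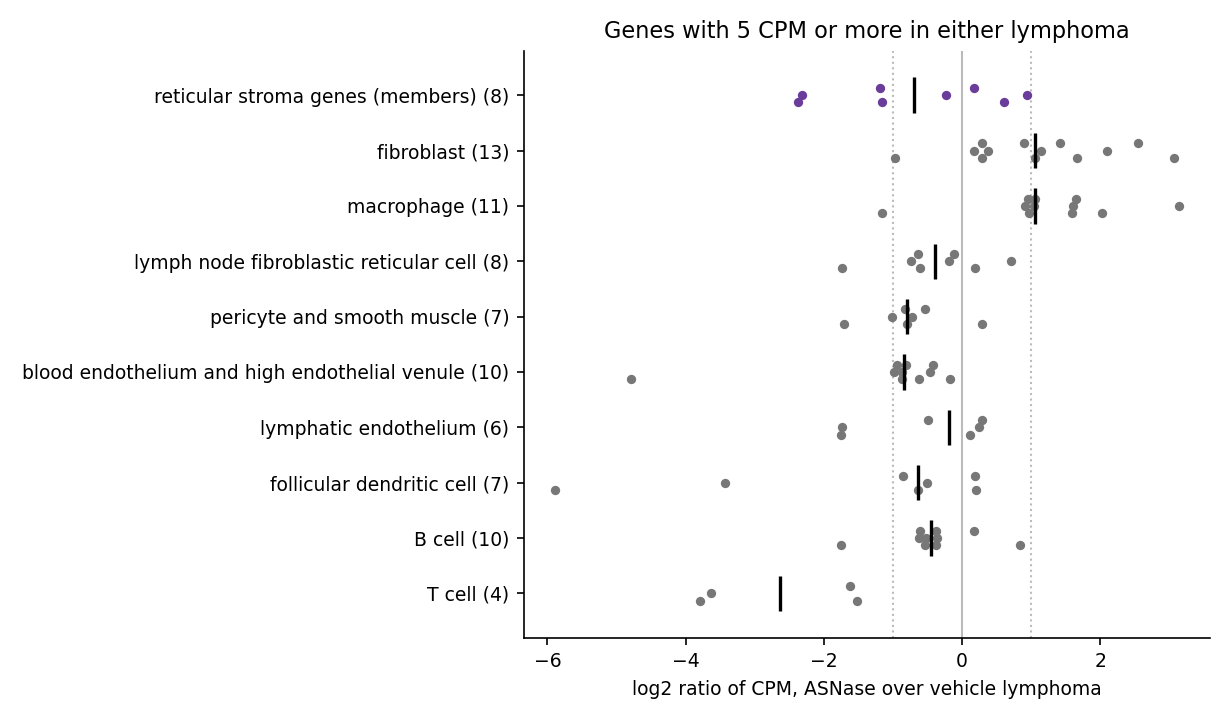
Log2 ratio of CPM, ASNase over vehicle tumour, for genes with 5 CPM or more in either; each dot is a gene, the black bar is the median of the list, the number of genes is in brackets and the dotted lines are 2-fold. The members spread from -2.38 (Enpp2) to 0.95 (Vcam1), while the medians of the fibroblast (1.06) and macrophage (1.05) lists lie above 0 and those of the T cell (-2.63) and blood endothelium (-0.84) lists below it.

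Lymphotoxin made by lymphocytes is known to maintain reticular cells, follicular dendritic cells and their VCAM-1 and ICAM-1 through the lymphotoxin beta receptor and NF-kappa-B. Of 13 tested genes of this signal 1 was called against the lines, the receptor gene Ltbr. It had 6 counts in all lines together, against 5.70 and 6.48 CPM with vehicle and with ASNase, and passed the filter only through the lymphomas. Ltb, the membrane-bound chain of the ligand, stood at 8.24 CPM in the vehicle and 0.401 CPM in the ASNase tumour, a ratio of 0.0486 (0.0248 to 0.0864), beside 0.204 CPM in line 506. Nfkb2 and Relb, the subunits of the non-canonical pathway, stood at 16.5 and 10.9 CPM in the vehicle and 6.78 and 6.82 CPM in the ASNase tumour. The median log2 ratio of the 10 genes at the floor was -0.38, with 2 at least 2-fold lower and 0 higher.

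Across the cultured lines, Icam1 varied more than Mfge8 did. The SD of log2 CPM was 1.36 for Icam1, at percentile 85.6 of all genes tested, and 0.54 for Mfge8, at percentile 56.2. The highest line held 32.5 times as much Icam1 as the lowest, and 3.75 times as much Mfge8. Line 524 had the highest Icam1 of all 12 lines and the lowest Mfge8. Beside line 524, Icam1 reached 49.9 CPM in line 504, 42.2 CPM in line 309 and 40.9 CPM in line 517, and the remaining lines ran from 6.69 to 32.0 CPM.

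**Figure D5:**
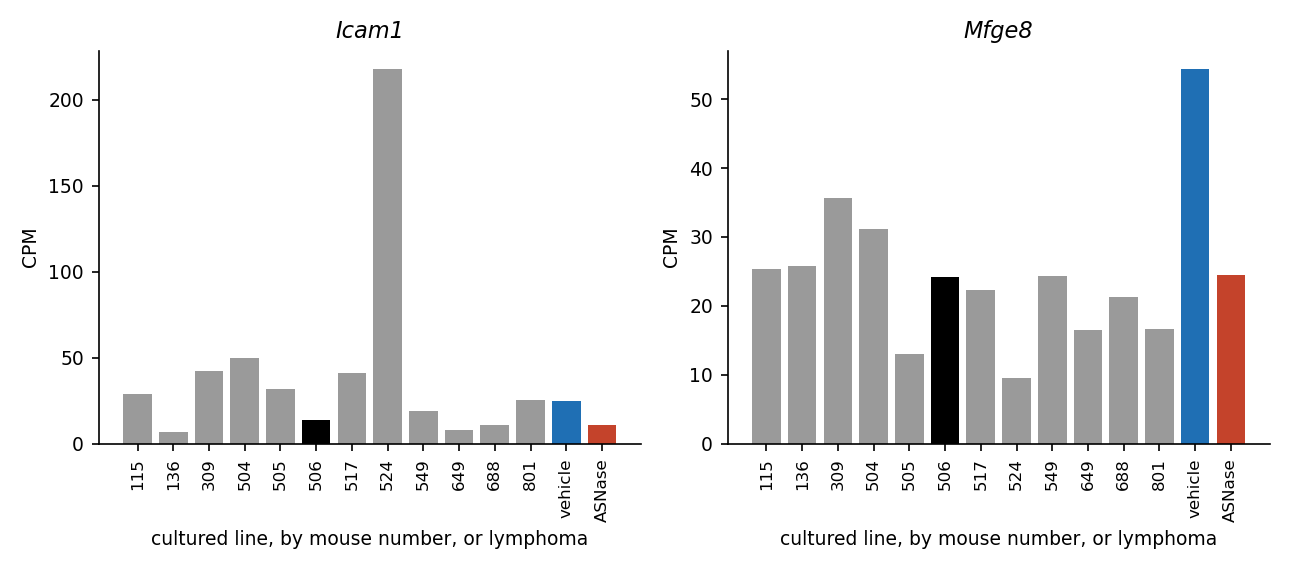
Levels of Icam1 (left) and Mfge8 (right) in CPM in each of the 12 cultured lines (grey, line 506 in black), the vehicle tumour (blue) and the ASNase tumour (red), 1 library a bar. Line 524 stands at 217.5 CPM for Icam1 and at 9.51 CPM for Mfge8, and the vehicle tumour has the highest Mfge8, at 54.3 CPM.

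Line 524 also had the highest levels of several genes of the lymphotoxin and TNF list, with Nfkb1 at 682.9 CPM (230.9 CPM in the next line), Nfkbia at 366.4 CPM (60.9) and Relb at 63.9 CPM (16.1). Over the 12 lines the log2 level of Icam1 was related to 7 such genes, a comparison chosen after the data were seen. Relb gave the highest Pearson r, 0.75 (permutation p = 0.0132, 0.0610 after Benjamini-Hochberg adjustment over 7), with a Spearman rho of 0.44 (permutation p = 0.154, adjusted 0.397). Without lines 524 and 136, the farthest from the median of Icam1, r for Relb was 0.27 over 10 lines, so that r rested on those lines. Leaving them out also narrows the range of Icam1, and the r for Map3k14, the kinase NIK, went from 0.42 to 0.71. None of the 7 relations passed after adjustment.

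The genes whose pattern over the 14 libraries was nearest to a member, by Euclidean distance between centred log2 levels among 9211 candidates (10 CPM or more in at least 1 lymphoma), differed between members. Pdgfra lay next to Col16a1 (distance 0.11), Mgp (0.18) and Galnt15 (0.19), and Igfbp3 next to the collagen chains Col6a1 (0.64) and Col6a2 (0.68) and to Serpina3n (0.80). Vcam1 lay next to the complement genes C1qc (1.12) and C1qb (1.34) and to Bgn (1.34), which encodes biglycan. Clu lay next to Cyr61 (1.13), Ccl21a (1.19) and Aqp1 (1.42), and Enpp2 next to Cd4 (1.05), Lyve1 (1.14) and Shank3 (1.22). Mfge8 lay next to Pecam1 (1.01), an adhesion molecule of endothelium that stood at 80.8 CPM in line 506 as well. The nearest genes of the other 4 members were farther off, at 1.36 for Pdpn (Fcer1g), 1.87 for Il7 (Notch4), 2.03 for Pdgfrb (Emp1) and 2.20 for Icam1 (Rps6ka1). Pdpn and Il7 themselves lay under 10 CPM in both lymphomas. Genes silent in the lines at their levels were therefore not among the candidates, and their distances cannot be set beside those of the other members. For genes silent in the lines such a distance rests on the 2 lymphomas alone.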

How the data were processed

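Whole-number counts per gene for 14 RNA libraries were deposited by the authors. A stranded mRNA kit and paired-end reads were used, per the labels' protocols. Reads were handled with STAR (2.4.0) and featureCounts (from Subread 1.5.0-p3), with mm10, or GRCm38, as the genome build, per the submitters' processing notes. How featureCounts treated strand and multi-mapping reads is not given in the sources used here. Columns were matched to samples by title, with 0 left over, and 100 spike-in and phage entries were left out.

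From these counts, CPM were computed with TMM scaling in edgeR 4.0.16 (R 4.3.3). Lines, vehicle lymphoma and ASNase lymphoma entered 1 quasi-likelihood fit after edgeR's default filter on low counts (17450 genes), with the mean of both lymphomas set against the lines and Benjamini-Hochberg adjustment at 0.05. The lines come from different mice, so p-values measure the spread between lines. The 2 lymphomas were compared by ratio with exact binomial 95% intervals, which cover counting error only, as reads carry no molecular identifiers. A fold over the lines uses their pooled counts. Levels per kilobase use the deposited gene length. Pattern distances use log2 CPM with a prior count of 2. The fit was tested on simulated counts, with changes planted only in genes at 5 CPM or more in the mean of the lines. The simulated lymphomas varied as the lines do. That test therefore does not cover genes nearly silent in the lines.

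The 10 members and the 20 gene lists were chosen with earlier results of these data known. From each list the text names up to 3 genes with the largest change among those called at 5 CPM or more, up to 3 with the largest ratio between the lymphomas at 5 CPM or more, and for each member up to 3 nearest genes. Other list members in the text were named after their values were seen. Alternatives were DESeq2 size factors, total-count scaling, TMM of the lymphomas alone, no filter, DESeq2 1.42.0, other CPM floors, each lymphoma or line left out, and ratios relative to the fibroblast list. One listed gene is not reported here.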

Additional observations from a re-analysis of the deposited data

How the results depend on the processing

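The 8 members called higher against the lines stayed at 8 with DESeq2 size factors, total-count scaling, no filter and without line 506, and were 6 with DESeq2's Wald test, where Pdpn and Il7 lost their calls. Leaving out 1 library gave 7 to 8 members, 67 to 92 list genes (81 with all libraries) and 1816 to 4881 genes called in all (4270 with all libraries), the low end without the ASNase lymphoma and 2012 without the vehicle lymphoma. Called genes were higher in 54.8% of cases, in 75.7% with total-count scaling, which moved the median log2 fold change of all genes to 0.21, and in 46.8%, 61.5% and 64.8% with DESeq2, without the vehicle and without the ASNase lymphoma. Between the lymphomas, 495 genes passed the size rule, 1133 at a floor of 1 CPM and 192 at 20 CPM, and under the other scalings 506 to 564. With total counts Vcam1 also passed 2-fold, at a log2 ratio of 1.00. Relative to the fibroblast median the log2 ratio reversed to -0.46 for Pdgfra, -0.12 for Vcam1, -0.90 for Igfbp3 and -0.73 for Pdpn, by construction. Both lymphomas stem from line 506, which in culture had at most 0.0339 CPM of each of the 8 members called higher, and no value between the lymphomas has a replicate. Genes at 0 in the lines could hold up to 0.124 CPM. No paired analysis was possible because the replicate numbers only name the samples and each lymphoma has 1 library.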
